A study of Mus musculus with 30 samples.

Results

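The proteasome is the large protease of the cytosol and nucleus that breaks down proteins tagged with ubiquitin. Its 20S core is a barrel of 2 outer alpha rings, which gate the entry, and 2 inner beta rings, in which Psmb6, Psmb7 and Psmb5 carry the proteolytic sites. The 19S regulatory particle caps the barrel, with 6 ATPases that unfold and thread the substrate and non-ATPase subunits that bind and remove ubiquitin. Other caps can take the place of the 19S particle, among them the PA28 complexes built from Psme1, Psme2 or Psme3 and the large single-chain activator PA200, the product of *Psme4*. In heart muscle the proteasome takes part in the turnover of sarcomeric and regulatory proteins.

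The transcripts of the proteasome were followed in mouse cardiac ventricle from birth to adulthood. All genes whose symbol in the platform annotation starts with Psma to Psmg were taken, other than *Psmb8*, *Psmb9* and *Psmd8*, which are not analysed here. This gave 34 genes of 6028 genes named in that annotation, each with 1 probe. They are 4 of the 7 alpha subunits (*Psma2*, *Psma4*, *Psma5*, *Psma7*), 6 of the 7 constitutive beta subunits (*Psmb1*, *Psmb2*, *Psmb3*, *Psmb4*, *Psmb6*, *Psmb7*), the inducible beta subunit *Psmb10*, 5 19S ATPases (*Psmc1* to *Psmc5*), 8 19S non-ATPases (*Psmd1*, *Psmd4*, *Psmd6*, *Psmd7*, *Psmd11* to *Psmd14*), 4 assembly chaperones (*Psmd10*, *Psmg1* to *Psmg3*) and 4 activator genes (*Psme1* to *Psme4*). The last 2, *Psmc3ip* and *Psme3ip1*, share the start of the symbol only and encode proteins that are not parts of the particle. All 34 probes were above the detection limit on all 30 arrays, so none passed the filter on dim probes through 1 group alone.

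RNA was hybridised to Illumina mouse whole-genome bead arrays, with 3 numbered replicates, 1 array each, in each of 10 groups. The paper names 3 biological replicates per time point, and also states that each of them was hybridised in triplicate. Whether each array here is a separate biological replicate is therefore not certain. Control mice carried the MCK-Cre transgene, and Sox6 KO mice carried the same transgene with both *Sox6* alleles flanked by loxP sites (Sox6loxp/loxp; MCK-Cre), on an FVB/B6 hybrid background. Ventricles of males were taken at postnatal day 1 (P1), P7, P14, P30 and P60 with no other treatment. MCK-Cre is driven by the muscle creatine kinase promoter. The study used it to inactivate *Sox6*, a transcription factor gene, in heart and skeletal muscle. The paper describes MCK expression in rats as still below its maximum at birth. It reports lower *Sox6* mRNA in the Sox6 KO heart by RT-qPCR. *Sox6* has no probe named in the tables used here, so its loss, and how complete it was at P1, was not checked. Whole ventricle was measured, so fewer cells of a type and less RNA per cell cannot be told apart. All 9 cardiomyocyte markers measured were detected in every group, and their summed intensity ranged from 151430 to 187432 in control P1 and from 203884 to 217588 in control P60. Correlations between arrays of 1 group lay between 0.983 and 0.996. Values below are log2 quantile-normalized intensities, given as replicates 1, 2 and 3. The log2 differences are limma estimates ± standard error, and adjusted p values are from limma's moderated test over 17991 probes.

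*Psme4* was the gene of the set whose signal changed most. *Psme4* in control ventricles was at 10.64, 10.43 and 10.60 at P1, 10.81, 10.86 and 10.87 at P7, 11.18, 11.30 and 11.13 at P14, 12.41, 12.36 and 12.25 at P30 and 12.10, 11.99 and 11.97 at P60. *Psme4* in the Sox6 KO was at 10.25, 10.24 and 10.62 at P1, 10.45, 10.58 and 10.47 at P7, 11.58, 11.60 and 11.23 at P14, 12.54, 12.31 and 12.27 at P30 and 12.12, 11.82 and 11.89 at P60. The arrays of P30 and P60 lay above all arrays of P1, P7 and P14 in both genotypes. The largest rise came between P14 and P30 in controls and between P7 and P30 in the Sox6 KO. From P1 to P60 the rise was 1.47 ± 0.10 in controls (2.76-fold, adjusted p = 1.30e-12) and 1.57 ± 0.10 in the Sox6 KO (2.97-fold, adjusted p = 2.50e-13). In controls the increase from P14 to P30 was 1.14 ± 0.10 (2.2-fold, adjusted p = 2.26e-09). In the Sox6 KO it was 0.97 ± 0.10 from P7 to P14 (adjusted p = 3.75e-08) and 0.90 ± 0.10 from P14 to P30 (adjusted p = 8.24e-08). These 5 changes kept their direction and call under every alternative tried. Smaller control rises were also called, 0.29 from P1 to P7 (adjusted p = 0.037) and 0.36 from P7 to P14 (adjusted p = 0.0137). Those calls held under 5 and 11 of 16 alternatives. Between P30 and P60 the signal fell by 0.32 ± 0.10 in controls (adjusted p = 0.0263) and by 0.43 ± 0.10 in the Sox6 KO (adjusted p = 0.00408). The control part of this fall lost its call without any of 4 single arrays (P30 replicate 1 or 2, P60 replicate 2 or 3), at -0.31 to -0.28, and the Sox6 KO part lost it without replicate 2 of every group, at -0.40. Among the 6071 named probes (probes tested that have 1 gene in the platform annotation), the control change from P1 to P60 ranked 181 from the top and that in the Sox6 KO ranked 168.

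The mean of the 20S core moved less than *Psme4*, and its members went both ways. The mean log2 signal of the 10 measured core subunits was 11.92, 12.10 and 12.005 at P1, 11.80, 11.82 and 11.79 at P7, 11.93, 11.90 and 11.98 at P14, 11.94, 11.89 and 11.89 at P30 and 11.82, 11.86 and 11.90 at P60 in controls. The same mean in the Sox6 KO was 11.89, 11.85 and 11.66 at P1, 11.82, 11.77 and 11.84 at P7, 11.90, 11.98 and 11.91 at P14, 11.91, 12.02 and 11.90 at P30 and 11.91, 11.93 and 11.97 at P60. Over the 10 groups the group means of the core stayed between 11.80 and 12.01, and those of *Psme4* between 10.37 and 12.37. The difference of *Psme4* from the core mean on the same array therefore changed by 1.61 from P1 to P60 in controls and by 1.43 in the Sox6 KO. It changed by 1.17 between P14 and P30 in controls and by 0.85 between P7 and P14 in the Sox6 KO. These 4 changes kept their direction under every alternative, at 1.23 to 1.67 for the Sox6 KO from P1 to P60 when arrays were left out. Within the core *Psmb1* and *Psmb7* rose in the Sox6 KO from P1 to P60, by 1.46 ± 0.27 and 0.53 ± 0.15, the latter not called with median scaling. The median change of the 10 subunits over that span was -0.17 in controls and -0.0061 in the Sox6 KO. With median scaling it was -0.41, with 8 lower, and -0.39, with 7 lower and 1 higher. Since probes differ in their response, only changes of this difference are read and not its level.

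**Figure D1:**
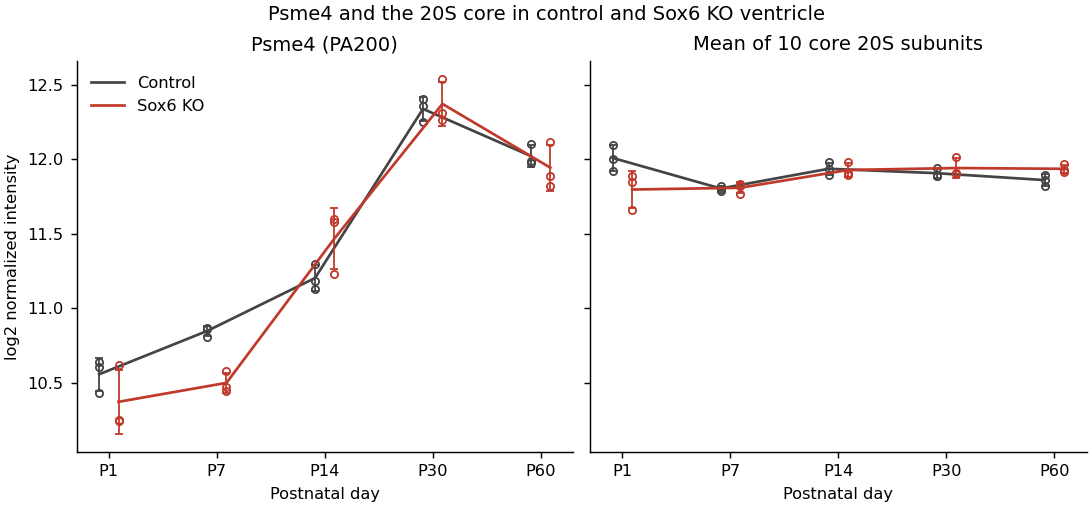
Log2 normalized intensity of *Psme4* (left) and of the mean of 10 core 20S subunits (right) against postnatal age. Open circles are single arrays, lines join group means and bars are SD (n = 3). *Psme4* group means run from 10.37 to 12.37 and the core means from 11.80 to 12.01.

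The promoters are shown here because *Psme4* and the subunits share a particle but not a course over age. RefSeq promoter windows of GRCm38.p6, from 250 bases before to 50 after the annotated start, were used for 28 of the 34 genes. Both strands were searched for 11 motifs. The ETS factor motif CCGGAAGT was present in 28.6% of the promoters (8 of 28), against 4.31% of all genes with a promoter entry. The nuclear respiratory factor palindrome was present in 21.4% (6 of 28) against 5.19%. The core of the antioxidant response element, TGACNNNGC, to which Nfe2l1 and related factors bind, was present in 10.7% (3 of 28: *Psmb6*, *Psmd12* and *Psme4*) against 14%. The CCAAT box was present in 39.3% against 41.1%, and the E-box CACGTG in 14.3% against 8.09%. The TATA box, searched as TATAAA, was present in 10.7% against 15.7%. The YY1 motif and the estrogen-related receptor motif TCAAGGTCA were present in 1 promoter each, 3.57% against 0.755% and 0.466%. The AP-1 motif TGACTCA, its longer form TGACTCAGC and the E2F motif TTTCGCGC were in none of the 28, against 5.95%, 0.503% and 0.374%. The longer AP-1 form holds the shorter one and a form of the antioxidant response core, so these searches overlap. A match is a run of letters and not a measured site. The *Psme4* window (chr11:30771525-30771824, plus strand) is printed with its CCGGAAGT match and its TGACNNNGC match, on the minus strand, in capitals, and the window of *Psmc4*, the 19S ATPase gene described below (chr7:28050043-28050342, minus strand), with its match to the nuclear respiratory factor palindrome in capitals.
Psme4: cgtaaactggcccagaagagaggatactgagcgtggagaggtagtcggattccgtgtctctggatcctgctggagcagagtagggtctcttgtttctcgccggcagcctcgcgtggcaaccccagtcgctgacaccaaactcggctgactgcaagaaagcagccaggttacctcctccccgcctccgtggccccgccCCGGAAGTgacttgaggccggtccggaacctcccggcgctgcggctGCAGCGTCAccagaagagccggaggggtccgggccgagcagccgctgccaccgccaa
Psmc4: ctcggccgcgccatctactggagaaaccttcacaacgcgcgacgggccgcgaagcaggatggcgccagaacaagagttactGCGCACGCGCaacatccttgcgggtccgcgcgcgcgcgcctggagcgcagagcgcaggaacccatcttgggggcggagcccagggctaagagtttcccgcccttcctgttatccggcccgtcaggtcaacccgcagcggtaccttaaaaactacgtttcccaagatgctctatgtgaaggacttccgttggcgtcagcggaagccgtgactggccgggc

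From P1 to P60 the other 33 genes changed less than *Psme4* in controls, and in the Sox6 KO *Psmb1* came close to it. In controls 5 of the 34 genes were higher and 12 lower at P60 than at P1 (adjusted p under 0.05), and 17 did not pass. Of all named probes 34.3% were higher and 30.6% lower in this comparison, and of all probes tested 27.6% and 27.2%. The 12 of 34 genes that fell are thus near the share of the named probes, and the 5 that rose are below it. The median change of the 34 genes was -0.10 against -0.01 for all probes tested, and without *Psme4* the changes ran from -0.55 to 0.59. In the Sox6 KO 11 genes were higher and 6 lower, with backgrounds of 37.7% and 30.1% of named probes, the median was 0.09, and without *Psme4* the changes ran from -0.59 to 1.46, the highest being *Psmb1*. Scaling the arrays to a common median in place of quantile normalization gave 2 higher and 22 lower in controls and 2 higher and 20 lower in the Sox6 KO. Shares of named probes under that scaling are not given, so counts with it have no background here. Under that scaling the median of all probes tested moved up, to 0.15 in controls and 0.14 in the Sox6 KO, and the median of the 34 genes moved down, to -0.35 and -0.31. Which small changes were called, and in which direction, therefore depended on the scaling. Not every call that the scaling ended is marked below. For the lists of genes around the particle only counts are given with it. Markers of other cell types, and 2 listed as atrial (*Nppa*, *Myl4*), moved over the same span. The paper treats *Nppa* as a fetal type gene of the heart, so the atrial markers need not measure atrial tissue. In controls the summed intensity of the 2 atrial markers measured ranged from 30135 to 74990 at P1 and from 3013 to 6699 at P60, and both markers were lower. That of the 6 endothelial markers ranged from 5014 to 5427 at P1 and from 3108 to 3366 at P60, and all 6 were lower. The sum of the 3 smooth muscle and pericyte markers ranged from 20345 to 25474 and from 4755 to 5606, with 1 higher and 1 lower, and of the 5 fibroblast markers 2 were higher and 2 lower. Of the 2 erythroid markers 1 was lower, and all 5 macrophage and leukocyte markers were higher. In the Sox6 KO both atrial, both erythroid and all 6 endothelial markers were lower and all 5 macrophage and leukocyte markers higher. Their part in the age changes was not tested. Of 119 changes of single genes called in 16 comparisons, 34 kept direction and call under every alternative, and 64 lost the call without at least 1 single array.

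**Figure D2:**
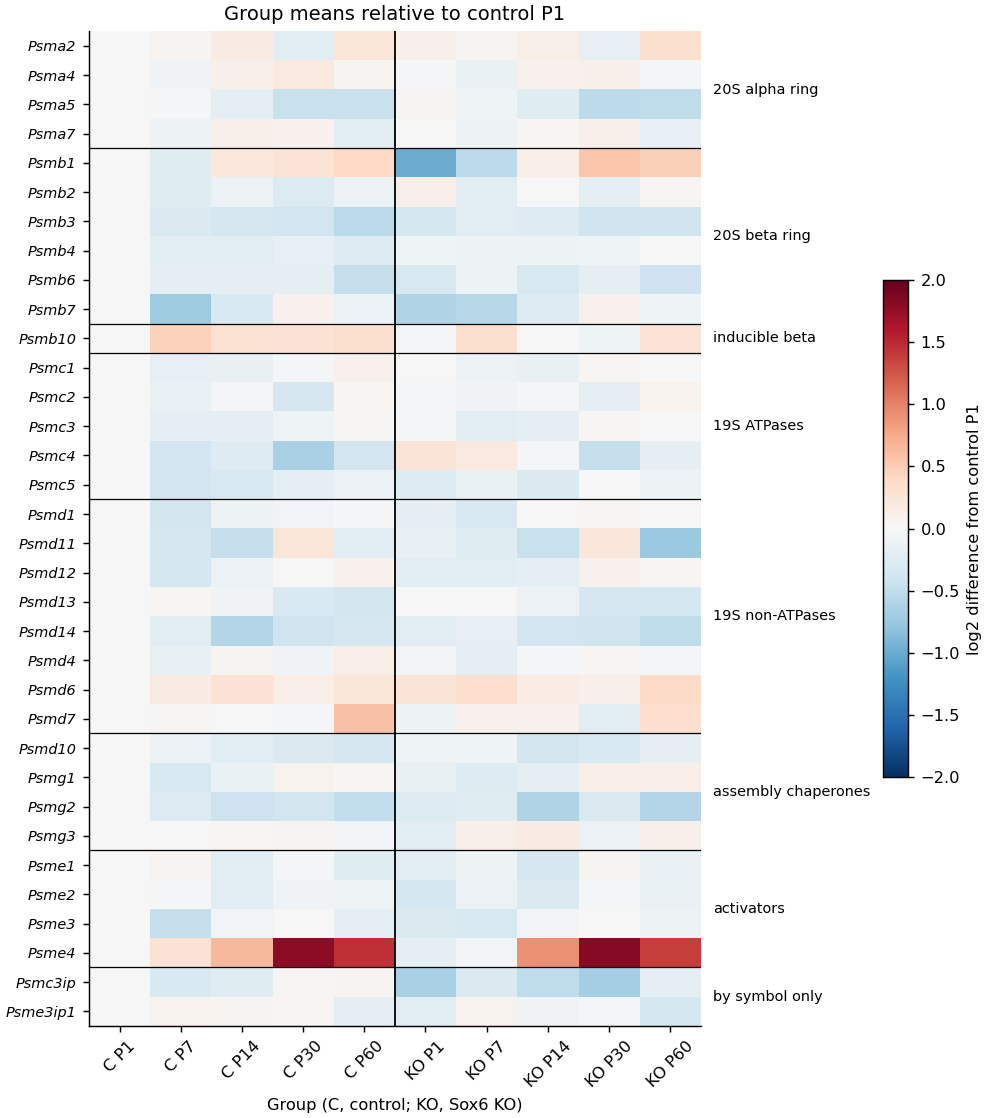
Group mean of each of the 34 genes minus its control P1 mean (colour, log2), with genes in rows by role and the 10 groups in columns (C, control; KO, Sox6 KO; n = 3 arrays per group). *Psme4* is the row that departs furthest from control P1, by 1.47 at P60 in controls, where the other genes had changed by -0.55 to 0.59.

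The F test over the 5 ages found a difference for 27 of the 34 genes in controls and for 24 in the Sox6 KO, where 83% and 85.5% of named probes passed. The highest control mean was at P1 for 13 genes, at P7 for 4, at P14 for 2, at P30 for 6 and at P60 for 9. Between neighbouring ages in controls, P7 against P1 gave 2 higher and 10 lower (19.1% and 14.4% of named probes), and P14 against P7 gave 1 higher and 2 lower (14.5% and 10.9%). P30 against P14 gave 3 and 5 (18.6% and 23.5%), and P60 against P30 gave 4 and 3 (15.5% and 12.4%). The 10 genes lower at P7 than at P1 in controls were 3 core subunits (*Psmb3*, *Psmb4*, *Psmb7*), 5 19S subunits (*Psmc4*, *Psmc5*, *Psmd1*, *Psmd11*, *Psmd12*), the chaperone gene *Psmg1* and *Psme3*. Their falls lay between 0.23 and 0.71 on the log2 scale. Of these calls only that of *Psmc5* held under every alternative. Single arrays ended the call of *Psme3* (control P1 replicate 2 or 3, P7 replicate 1 or 2, at -0.47 to -0.28), which was -0.77 without P1 replicate 1, and those of *Psmd1* (P1 replicate 2, at -0.27), *Psmb4* (P1 replicate 1, at -0.21) and *Psmd12* (P7 replicate 1, at -0.30). The same step in the Sox6 KO gave 4 higher and 1 lower (20.1% and 13.8%), P14 against P7 gave 3 and 4 (20.4% and 14.4%), P30 against P14 gave 9 and 6 (19.8% and 26.4%), and P60 against P30 gave 6 and 4 (12.6% and 8.3%). With median scaling, controls gave 1 higher and 14 lower for P7 against P1, 0 and 4 for P14 against P7, and 3 and 4 for P60 against P30. The Sox6 KO then gave 1 and 20 for P14 against P7, 5 and 5 for P30 against P14, and 2 and 3 for P60 against P30.

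Among the alpha subunits, which form the outer rings of the core, *Psma5* fell with age and *Psma2* had a dip at P30. *Psma5* in control ventricles was at 12.60, 12.27 and 12.31 at P1, 12.40, 12.44 and 12.23 at P7, 12.19, 12.24 and 12.22 at P14, 11.93, 11.99 and 11.91 at P30 and 11.96, 11.87 and 11.99 at P60. *Psma5* in the Sox6 KO was at 12.38, 12.48 and 12.49 at P1, 12.44, 12.23 and 12.27 at P7, 12.20, 12.10 and 12.16 at P14, 11.89, 11.81 and 11.93 at P30 and 11.80, 11.91 and 11.93 at P60. All P60 arrays lay below all P1 arrays in both genotypes. The change from P1 to P60 was -0.45 ± 0.07 in controls (adjusted p = 1.03e-05) and -0.57 ± 0.07 in the Sox6 KO (adjusted p = 2.31e-07), and both held under every alternative. Over the 10 group means its log2 signal ran opposite to that of *Psme4*, with a Pearson r of -0.97, a description in which both genes are read from the same arrays. *Psma2* in control ventricles was at 12.81, 12.64 and 12.69 at P1, 12.75, 12.85 and 12.70 at P7, 12.86, 12.85 and 12.94 at P14, 12.44, 12.53 and 12.50 at P30 and 12.83, 13.06 and 12.99 at P60. *Psma2* in the Sox6 KO was at 12.65, 12.89 and 12.91 at P1, 12.80, 12.71 and 12.79 at P7, 12.80, 12.76 and 12.94 at P14, 12.58, 12.56 and 12.53 at P30 and 12.90, 13.19 and 13.01 at P60. Its low point was P30 in both genotypes, where no array overlapped those of P14 or P60. From P14 to P30 it fell by 0.39 ± 0.08 in controls (adjusted p = 0.000346) and by 0.28 ± 0.08 in the Sox6 KO (adjusted p = 0.00692). The Sox6 KO fall lost its call at -0.22 without P14 replicate 3. From P30 to P60 it rose by 0.47 ± 0.08 in controls (adjusted p = 0.0001) and 0.48 ± 0.08 in the Sox6 KO (adjusted p = 0.000111). Both rises and the control fall held under every alternative. The control difference between P60 and P1, 0.24 (adjusted p = 0.0105), was 0.0055 and not called with median scaling, and lost its call without P1 replicate 2 (0.21) or P60 replicate 2 (0.19) and with the authors' table (0.18).

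*Psma7* reached its lowest control values at P60. *Psma7* in control ventricles was at 11.25, 11.35 and 11.09 at P1, 11.06, 11.21 and 11.14 at P7, 11.37, 11.34 and 11.34 at P14, 11.41, 11.20 and 11.33 at P30 and 10.97, 11.08 and 10.99 at P60. *Psma7* in the Sox6 KO was at 11.27, 11.13 and 11.26 at P1, 11.16, 11.05 and 11.17 at P7, 11.25, 11.34 and 11.24 at P14, 11.31, 11.46 and 11.20 at P30 and 10.86, 11.04 and 11.31 at P60. In controls the P60 arrays lay just below all P1 arrays, and in the Sox6 KO the arrays of both ages overlapped. The control difference of P60 from P1 was -0.22 ± 0.09 (adjusted p = 0.0381), a call that held under 7 of 16 alternatives and was lost without P1 replicate 1 or 2 or P60 replicate 1 or 3, at -0.21 to -0.16. *Psma4* was within 0.32 over its 10 group means.

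Of the 6 constitutive beta subunits, which form the inner rings, *Psmb3*, *Psmb4* and *Psmb6* were lower at P60 than at P1 in controls and none was higher, where 30.6% of named probes were lower, and 5 were lower with median scaling. The *Psmb4* call was lost at -0.15 without replicate 1 of every group. In the Sox6 KO 2 were higher and none lower, where 37.7% of named probes were higher, or 1 and 4 with median scaling. *Psmb3* in control ventricles was at 12.12, 12.32 and 12.33 at P1, 11.85, 12.11 and 11.93 at P7, 11.98, 11.84 and 11.94 at P14, 11.997, 11.81 and 11.83 at P30 and 11.70, 11.71 and 11.72 at P60. *Psmb3* in the Sox6 KO was at 11.92, 11.98 and 11.82 at P1, 11.9997, 12.13 and 11.98 at P7, 11.9997, 11.95 and 12.06 at P14, 11.83, 11.97 and 11.80 at P30 and 11.83, 11.89 and 11.87 at P60. The control arrays of P60 were the lowest of the course and those of P1 the highest, whereas the P1 arrays of the Sox6 KO lay among those of later ages. The control change from P1 to P60 was -0.55 ± 0.07 (adjusted p = 4.24e-07) and held under every alternative, and the Sox6 KO difference over the same span was -0.04 ± 0.07 (adjusted p = 0.641). *Psmb6* carries the caspase-like site of the core. *Psmb6* in control ventricles was at 11.91, 12.31 and 12.06 at P1, 11.84, 11.87 and 12.05 at P7, 11.96, 11.84 and 11.94 at P14, 11.91, 11.91 and 11.89 at P30 and 11.66, 11.66 and 11.52 at P60. *Psmb6* in the Sox6 KO was at 11.75, 11.98 and 11.62 at P1, 12.05, 11.92 and 11.99 at P7, 11.62, 11.94 and 11.75 at P14, 11.87, 12.15 and 11.71 at P30 and 11.81, 11.58 and 11.67 at P60. The control P60 arrays lay below every other control array, and in the Sox6 KO those of P1 and P60 overlapped. *Psmb6* fell by 0.48 ± 0.11 from P1 to P60 in controls (adjusted p = 0.000371), under every alternative as well. The Sox6 KO difference was -0.10 ± 0.11 (adjusted p = 0.456). *Psmb2* differed by -0.11 ± 0.11 from P1 to P60 in controls and did not pass.

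*Psmb7*, which carries the trypsin-like site, had arrays that disagreed at control P1. *Psmb7* in control ventricles was at 11.61, 12.72 and 12.44 at P1, 11.43, 11.62 and 11.58 at P7, 11.92, 11.95 and 12.01 at P14, 12.38, 12.34 and 12.32 at P30 and 12.11, 12.18 and 12.11 at P60. *Psmb7* in the Sox6 KO was at 11.72, 11.67 and 11.56 at P1, 11.76, 11.70 and 11.59 at P7, 11.99, 11.97 and 12.04 at P14, 12.13, 12.59 and 12.33 at P30 and 12.31, 12.10 and 12.12 at P60. Control P1 replicate 1 was with the P1 and P7 arrays of the Sox6 KO, and the other 2 control P1 arrays were the highest or among the highest of the whole course. From P7 to P30 the arrays rose in both genotypes. The control difference of P7 from P1 was -0.71 ± 0.15 (1.64-fold lower, adjusted p = 0.000902), and the arrays of the 2 ages overlapped. It was lost without replicate 2 (-0.52) or 3 (-0.64) of every group. *Psme3* at control P1 (8.93, 9.66 and 9.92) and *Psmd1* (11.80, 12.30 and 12.24) had the same array lowest. *Psmb1* in control ventricles was at 10.34, 10.96 and 10.77 at P1, 10.61, 10.36 and 10.39 at P7, 10.89, 10.78 and 11.03 at P14, 11.17, 10.88 and 10.87 at P30 and 10.95, 11.07 and 11.25 at P60. *Psmb1* in the Sox6 KO was at 10.56, 9.83 and 8.73 at P1, 9.69, 10.14 and 10.65 at P7, 10.76, 11.04 and 10.65 at P14, 11.26, 11.38 and 11.08 at P30 and 11.29, 11.30 and 10.91 at P60. The P1 arrays of the Sox6 KO spanned 8.73 to 10.56, the widest span of the set, and the P30 and P60 arrays lay above them. The Sox6 KO rise from P1 to P60 was 1.46 ± 0.27 (2.75-fold, adjusted p = 3.13e-05) and was 0.97 to 1.89 over the alternatives, the lowest of them without Sox6 KO P1 replicate 3. The *Psmb7* rise in the Sox6 KO over that span was 0.53 ± 0.15 (adjusted p = 0.00396), or 0.15 and not called with median scaling. The control difference of *Psmb1* was 0.40 ± 0.27 (adjusted p = 0.208).

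*Psmb10*, the beta subunit induced by interferon that belongs to the immunoproteasome, rose from P1 to P7. *Psmb10* in control ventricles was at 10.33, 9.88 and 9.96 at P1, 10.49, 10.63 and 10.44 at P7, 10.39, 10.38 and 10.32 at P14, 10.42, 10.13 and 10.47 at P30 and 10.51, 10.37 and 10.27 at P60. *Psmb10* in the Sox6 KO was at 9.98, 10.13 and 10.004 at P1, 10.47, 10.46 and 10.22 at P7, 10.05, 9.98 and 10.17 at P14, 10.18, 9.87 and 9.84 at P30 and 10.12, 10.55 and 10.34 at P60. P7 held the highest group mean in both genotypes, and the control arrays of P1 and P60 overlapped. In the Sox6 KO the rise from P1 to P7 was 0.35 (adjusted p = 0.0267), a call that held under 6 of 16 alternatives. Its Sox6 KO means at P14 and P30 were 10.07 and 9.96, near the 10.04 of P1. The Sox6 KO rise from P1 to P60 was 0.30 (adjusted p = 0.029), and it was -0.10 with median scaling. From P1 to P7 the control rise was 0.46 ± 0.12 (adjusted p = 0.00398). That call was lost without replicate 2 (0.32) or 3 (0.46) of every group. The control rise from P1 to P60 was 0.33 ± 0.12 (adjusted p = 0.0185). It was lost at 0.04 with median scaling and at 0.24 without P1 replicate 2. It was also lost at 0.28 without P1 replicate 3 and at 0.26 without P60 replicate 1. All 5 macrophage and leukocyte markers measured (*Csf1r*, *Lyz1*, *Lyz2*, *C1qb*, *Laptm5*) rose over the same span, and their summed intensity in controls ranged from 2088 to 2369 at P1 and from 7858 to 8011 at P60. Their part in the result was not tested.

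The 5 measured 19S ATPases belong to the ring that drives substrates into the core. Of these only *Psmc4* was called between P1 and P60. It was lower in both genotypes, where 30.6% of named probes were lower in controls and 30.1% in the Sox6 KO. With median scaling 3 were called in controls and 4 in the Sox6 KO, all lower. *Psmc4* in control ventricles was at 11.22, 10.89 and 10.91 at P1, 10.74, 10.46 and 10.69 at P7, 10.71, 10.80 and 10.74 at P14, 10.46, 10.36 and 10.24 at P30 and 10.45, 10.72 and 10.72 at P60. *Psmc4* in the Sox6 KO was at 11.33, 11.38 and 11.10 at P1, 11.09, 11.21 and 11.32 at P7, 10.89, 11.07 and 10.94 at P14, 10.63, 10.46 and 10.51 at P30 and 10.83, 10.86 and 10.75 at P60. P30 held its lowest group mean in both genotypes, and at P7, P14 and P60 every Sox6 KO array was above every control array. The change from P1 to P60 was -0.38 ± 0.10 in controls (adjusted p = 0.00168) and -0.46 ± 0.10 in the Sox6 KO (adjusted p = 0.00021). The Sox6 KO part held under every alternative, and the control part was lost at -0.18 without replicate 1 of every group. *Psmc1* was called in none of the 16 comparisons by limma at an adjusted p under 0.05, and *Psmc3* in 1. *Psmc2* had its low point at P30 in controls, with -0.32 ± 0.10 from P14 to P30 (adjusted p = 0.0123) and 0.38 ± 0.10 from P30 to P60 (adjusted p = 0.00569). The fall was not called without P14 replicate 2 (-0.27) or P30 replicate 3 (-0.29), and the rise not without replicate 2 (0.33) or 3 (0.31) of every group. *Psmc5* fell by 0.39 ± 0.09 from P1 to P7 in controls (adjusted p = 0.0027), under every alternative, and differed by -0.11 ± 0.09 between P1 and P60.

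The 8 19S non-ATPases include the lid that binds and deubiquitinates substrates. From P1 to P60 2 were higher and 3 lower in each genotype. Of named probes 34.3% were higher and 30.6% lower in controls, and 37.7% and 30.1% in the Sox6 KO. With median scaling 1 was higher and 4 lower in controls, and none higher and 5 lower in the Sox6 KO. *Psmd11*, a lid subunit that lies between the lid and the ATPase ring, moved most. *Psmd11* in control ventricles was at 8.35, 8.35 and 8.18 at P1, 7.97, 7.94 and 7.98 at P7, 7.87, 7.87 and 7.74 at P14, 8.59, 8.64 and 8.39 at P30 and 8.19, 7.89 and 8.14 at P60. *Psmd11* in the Sox6 KO was at 8.32, 7.91 and 8.18 at P1, 8.14, 8.08 and 7.92 at P7, 7.91, 7.90 and 7.73 at P14, 8.48, 8.51 and 8.56 at P30 and 7.50, 7.57 and 7.58 at P60. In both genotypes P30 stood above P7 and P14 with no overlap of arrays, and at P60 the Sox6 KO arrays were the lowest of all 30. From P14 to P30 it rose by 0.71 ± 0.09 in controls (1.64-fold, adjusted p = 7.22e-07) and 0.67 ± 0.09 in the Sox6 KO (1.59-fold, adjusted p = 1.45e-06). From P30 to P60 it fell by 0.46 ± 0.09 in controls (adjusted p = 0.000493) and by 0.96 ± 0.09 in the Sox6 KO (adjusted p = 5.44e-08). These 4 changes held under every alternative.

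*Psmd7*, which pairs with the deubiquitinase subunit Psmd14 in the lid, was highest at P60. *Psmd7* in control ventricles was at 10.60, 10.03 and 10.11 at P1, 10.38, 10.09 and 10.33 at P7, 10.31, 10.33 and 10.09 at P14, 10.29, 10.12 and 10.18 at P30 and 10.75, 10.94 and 10.82 at P60. *Psmd7* in the Sox6 KO was at 10.17, 10.33 and 9.95 at P1, 10.48, 10.35 and 10.18 at P7, 10.29, 10.34 and 10.36 at P14, 10.18, 9.86 and 10.001 at P30 and 10.47, 10.63 and 10.64 at P60. The control P60 arrays lay above every other control array, and from P30 to P60 the rise was 0.64 ± 0.12 in controls (1.55-fold, adjusted p = 0.000343) and 0.57 ± 0.12 in the Sox6 KO (adjusted p = 0.00143). Both held under every alternative, as did the control rise from P1 of 0.59 ± 0.12. The Sox6 KO rise from P1 of 0.43 ± 0.12 was 0.02 with median scaling. *Psmd14*, the deubiquitinase, was in control ventricles at 9.50, 9.84 and 9.67 at P1, 9.48, 9.44 and 9.39 at P7, 9.12, 9.07 and 9.05 at P14, 9.40, 9.17 and 9.25 at P30 and 9.48, 9.03 and 9.47 at P60. *Psmd14* in the Sox6 KO was at 9.35, 9.48 and 9.53 at P1, 9.41, 9.64 and 9.46 at P7, 9.41, 9.31 and 9.15 at P14, 9.06, 9.14 and 9.60 at P30 and 9.005, 9.39 and 9.08 at P60. In controls its P60 arrays lay below its P1 arrays, and P14 held the lowest mean. The control change from P1 to P60 was -0.34 ± 0.13 (adjusted p = 0.0218) and was lost without P1 replicate 2 (-0.26) or P60 replicate 2 (-0.20).

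*Psmd13*, another lid subunit, fell with age in both genotypes. *Psmd13* in control ventricles was at 11.41, 11.34 and 11.30 at P1, 11.38, 11.44 and 11.34 at P7, 11.31, 11.28 and 11.26 at P14, 10.95, 11.03 and 11.18 at P30 and 10.92, 11.07 and 10.97 at P60. *Psmd13* in the Sox6 KO was at 11.32, 11.48 and 11.25 at P1, 11.31, 11.40 and 11.34 at P7, 11.31, 11.11 and 11.27 at P14, 11.01, 10.97 and 11.05 at P30 and 10.92, 11.03 and 11.04 at P60. Its P30 and P60 arrays lay below those of P1 to P14 in both genotypes. From P1 to P60 the change was -0.36 ± 0.07 in controls (adjusted p = 5.09e-05) and -0.36 ± 0.07 in the Sox6 KO (adjusted p = 6.34e-05), under every alternative. *Psmd6* is a further lid subunit. *Psmd6* in control ventricles was at 7.50, 7.62 and 7.67 at P1, 7.73, 7.90 and 7.64 at P7, 8.01, 7.77 and 7.85 at P14, 7.85, 7.70 and 7.64 at P30 and 7.86, 7.76 and 7.90 at P60. *Psmd6* in the Sox6 KO was at 7.98, 7.74 and 7.84 at P1, 7.87, 7.95 and 7.99 at P7, 7.71, 7.86 and 7.67 at P14, 7.63, 7.59 and 7.86 at P30 and 8.03, 8.02 and 7.89 at P60. Every control array of P60 was above those of P1. The control difference of P60 from P1 was 0.25 ± 0.09 (adjusted p = 0.018), lost without P1 replicate 1 (0.20) or P60 replicate 3 (0.22) and at 0.18 with median scaling. *Psmd1*, the large scaffold of the base, differed by -0.03 ± 0.09 and *Psmd12*, a lid subunit, by 0.08 ± 0.10 between P1 and P60 in controls, and neither passed. *Psmd4*, a ubiquitin receptor, was called in none of the 16 comparisons by limma at an adjusted p under 0.05.

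The assembly chaperones help build the core and the base of the 19S particle and leave the finished complex. *Psmg2*, one partner of the chaperone pair for the alpha ring, fell. *Psmg2* in control ventricles was at 9.56, 9.46 and 9.67 at P1, 9.36, 9.37 and 9.14 at P7, 9.28, 9.17 and 9.03 at P14, 9.21, 9.25 and 9.15 at P30 and 9.29, 9.15 and 8.80 at P60. *Psmg2* in the Sox6 KO was at 9.52, 9.29 and 9.08 at P1, 9.26, 9.41 and 9.29 at P7, 8.94, 8.91 and 9.02 at P14, 9.20, 9.30 and 9.31 at P30 and 8.80, 9.07 and 9.09 at P60. The control change of *Psmg2* from P1 to P60 was -0.49 ± 0.11 (adjusted p = 0.000366) and held under every alternative, with no overlap of arrays. The Sox6 KO change of -0.31 ± 0.11 (adjusted p = 0.017) was lost without P1 replicate 1 (-0.19) or P60 replicate 1 (-0.21). *Psmd10*, the chaperone of the base also called gankyrin, was in control ventricles at 9.40, 9.42 and 9.25 at P1, 9.06, 9.35 and 9.31 at P7, 9.07, 9.17 and 9.18 at P14, 9.12, 9.03 and 9.07 at P30 and 8.93, 9.05 and 9.08 at P60. *Psmd10* in the Sox6 KO was at 9.38, 9.23 and 9.20 at P1, 9.44, 9.11 and 9.28 at P7, 8.98, 9.01 and 8.98 at P14, 9.07, 9.16 and 8.93 at P30 and 9.05, 9.24 and 9.25 at P60. The P60 arrays lay below the P1 arrays in controls and overlapped them in the Sox6 KO. *Psmd10* fell from P1 to P60 in controls by 0.34 ± 0.09 (adjusted p = 0.0014), under every alternative, and the Sox6 KO difference was -0.09 ± 0.09 (adjusted p = 0.383). *Psmg1*, the other partner, differed by 0.04 ± 0.08 from P1 to P60 in controls and *Psmg3* by -0.06 ± 0.10, and neither passed.

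The other 3 activator genes encode PA28 subunits and changed less than *Psme4*. *Psme1* and *Psme2* form the PA28 ring induced by interferon, and *Psme3* forms the nuclear one. *Psme1* in control ventricles was at 12.07, 11.97 and 11.88 at P1, 11.76, 12.18 and 12.16 at P7, 11.76, 11.89 and 11.63 at P14, 11.84, 11.92 and 12.03 at P30 and 11.70, 11.73 and 11.78 at P60. *Psme1* in the Sox6 KO was at 11.82, 11.75 and 11.68 at P1, 11.82, 11.83 and 11.97 at P7, 11.56, 11.76 and 11.60 at P14, 12.07, 11.98 and 12.02 at P30 and 11.85, 11.79 and 11.89 at P60. The P60 arrays of controls lay below those of P1, by 0.24 (adjusted p = 0.0246), a call lost without P1 replicate 1 (-0.19) or P60 replicate 1 (-0.22) or 2 (-0.23). In the Sox6 KO *Psme1* rose by 0.39 ± 0.09 from P14 to P30 (adjusted p = 0.00104), under every alternative. *Psme2* differed by -0.09 ± 0.09 and *Psme3* by -0.19 ± 0.16 between P1 and P60 in controls, and neither passed.

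**Figure D3:**
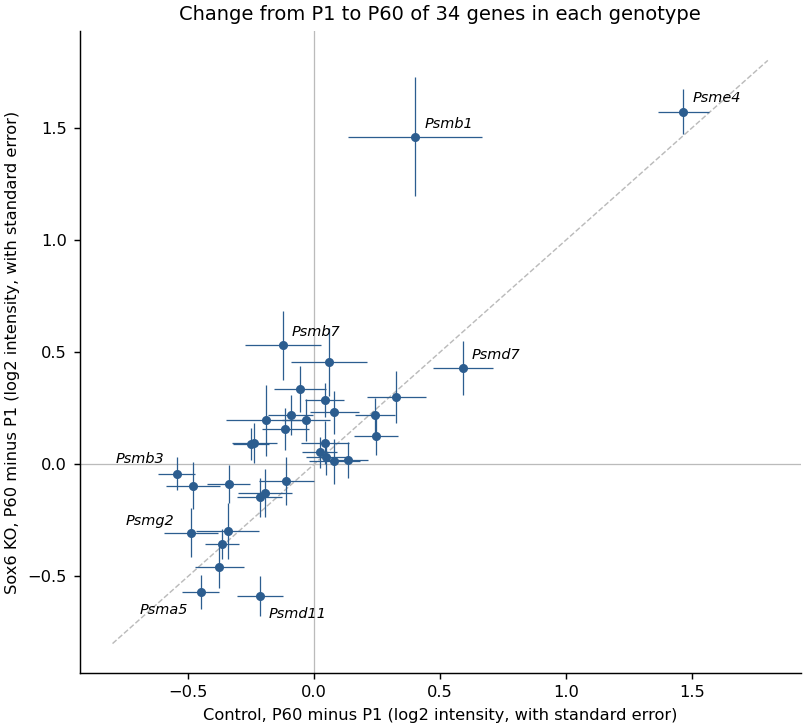
Change from P1 to P60 in controls (horizontal axis) and in the Sox6 KO (vertical axis), log2 intensity with standard error, 1 point per gene (34 genes; dashed line, equal change). *Psme4* lies at 1.47 and 1.57, *Psmb1* at 0.40 and 1.46, and every other gene within 0.6 of 0 on both axes.

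The control and Sox6 KO courses share no arrays. The change from P1 to P60 had the same sign in both for 26 of the 34 genes, and 10 genes passed in both with the same sign and none with opposite signs. Across the 34 genes Pearson's r was 0.80, and 0.68 without *Psme4*. Genes of 1 array are not independent replicates, and both courses share a normalization, so no p is given. Of all named probes 34.3% were higher and 30.6% lower in controls, and 37.7% and 30.1% in the Sox6 KO. The agreement between the genotypes is not given for all named probes, so it cannot be read as particular to these genes.

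The Sox6 KO was then compared with controls at each age. At P1 6 of the 34 genes were lower in the Sox6 KO and 1 was higher, where 12.3% and 10.7% of named probes were called. At P7 1 gene was higher and 1 lower (3.03% and 3.39% of named probes). At P14 no gene was called by limma, with 1.8% and 1.43% of named probes called. By limma 3 genes (*Psmb10*, *Psmc4* and *Psme4*) had an unadjusted p under 0.05 at P14. The share of named probes at that unadjusted threshold is not given, so this count has no background here. A fit on the P14 groups alone called 1. At P30 2 genes were lower and none higher (5.49% and 4.05%), and at P60 1 was higher and 1 lower (2.45% and 2.36%). With median scaling the gene lower at P7 and the gene higher at P60 were no longer called. In the mean of the 5 differences 2 genes were higher and 3 lower (8.63% and 10.2%), and 1 higher and 9 lower with median scaling. Of these 5, the small means of *Psmb4* (0.10 ± 0.03) and *Psmd11* (-0.12 ± 0.04) lost their calls without any 1 of 17 and of 20 of the 30 arrays. A KO effect that differed between ages was found for 4 of the 34 genes, where 19.1% of named probes passed. By the stricter thresholds that the study used, 1.5-fold with an adjusted p below 0.01, the calls were *Psmb7* and *Psmc3ip* at P1, both lower (2.22% of named probes), and *Psmc3ip* at P30, lower (1%).

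**Figure D4:**
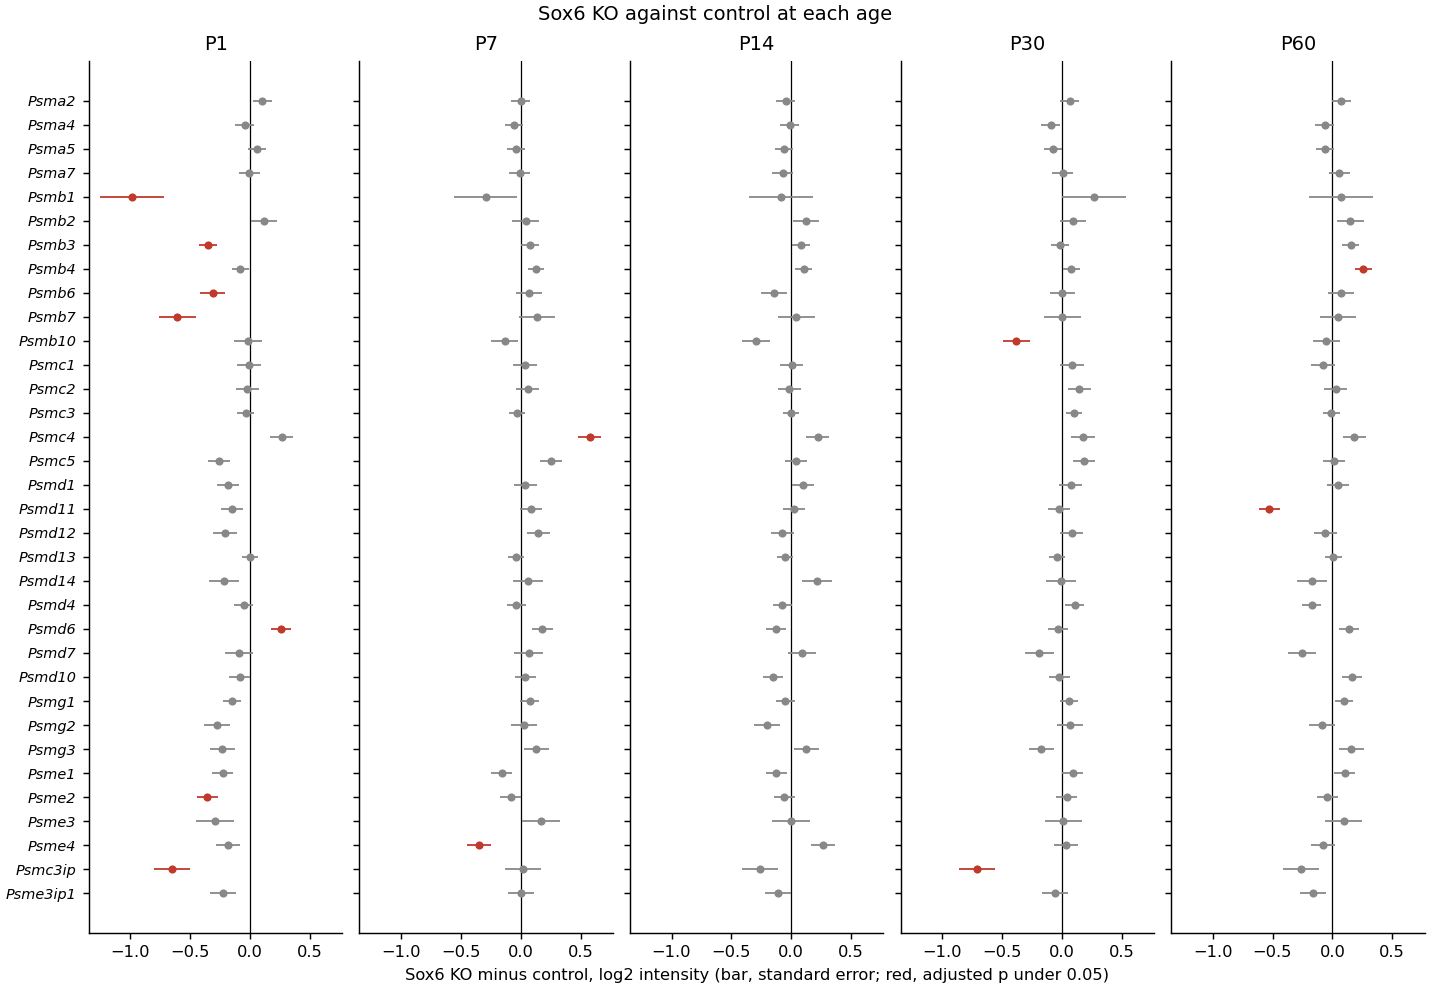
Sox6 KO minus control in log2 intensity for each of the 34 genes (rows) at 5 ages (panels). Points are limma estimates with standard errors, and red points have an adjusted p under 0.05. There are 7 red points at P1, 2 at P7, none at P14, 2 at P30 and 2 at P60.

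*Psmc4* had the lowest adjusted p of the 34 genes for the mean difference between genotypes. With the arrays given above, it was higher in the Sox6 KO at P7 by 0.58 ± 0.10 (1.49-fold, adjusted p = 0.000297), with no overlap of arrays. The differences were 0.26 ± 0.10 at P1, 0.22 ± 0.10 at P14, 0.18 ± 0.10 at P30 and 0.18 ± 0.10 at P60, none of which passed alone. The mean of the 5 differences was 0.28 ± 0.04 (adjusted p = 2.32e-05). The P7 value and the mean held under every alternative, between 0.49 and 0.69 and between 0.22 and 0.31.

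*Psmd11* was lower in the Sox6 KO at P60, where no arrays overlapped, by 0.53 ± 0.09 (1.44-fold, adjusted p = 0.000405). This held under every alternative, between -0.91 and -0.44. At P1 to P30 its differences lay between -0.15 and 0.08 and did not pass. The test of whether the KO effect differed between ages passed for *Psmd11* (adjusted p = 0.00813). *Psmb4* was higher in the Sox6 KO at P60, at 12.73, 12.75 and 12.76 against 12.33, 12.49 and 12.65, by 0.26 ± 0.07 (adjusted p = 0.0311). That call held under 6 of 16 alternatives, was 0.11 with median scaling and was lost without each of 5 single P60 arrays (control replicate 1 or 2, Sox6 KO replicate 1, 2 or 3), at 0.18 to 0.27.

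*Psme4* was lower in the Sox6 KO at P7, at 10.45, 10.58 and 10.47 against 10.81, 10.86 and 10.87, with no overlap. The difference was -0.35 ± 0.10 (1.27-fold, adjusted p = 0.041). It kept its direction under every alternative (-0.39 to -0.28) but the call was lost without any single P7 array of either genotype. At P14 the difference was 0.27 ± 0.10 (95% interval 0.06 to 0.47, adjusted p = 0.204), at P30 0.03 ± 0.10 and at P60 -0.08 ± 0.10. The test of a KO effect that differs between ages gave an adjusted p of 0.0305 for *Psme4*. Relative to the core mean of the same arrays, the P7 difference was -0.35.

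Of the 6 genes lower in the Sox6 KO at P1, 4 were beta subunits. *Psmb7* was lower by 0.61 ± 0.15 (1.52-fold, adjusted p = 0.0063), with overlap. It was -0.93 without control P1 replicate 1, and at -0.38 without control P1 replicate 2 it no longer passed. *Psmb1* was lower by 0.98 ± 0.27 (adjusted p = 0.0106), with overlap, and lost the call at -0.50 without Sox6 KO replicate 3 and at -0.85 without control replicate 2. *Psmb3* was lower by 0.35 ± 0.07 (adjusted p = 0.00149), with no overlap, and kept the call without any single array. It lost the call at -0.27 without replicate 3 of every group, and with only the groups compared. *Psmb6* was lower by 0.31 ± 0.11 (adjusted p = 0.0424), and lost it without control P1 replicate 2 (-0.20) or 3 (-0.33) or Sox6 KO replicate 1 (-0.30) or 3 (-0.23). *Psme2* was at 8.70, 8.81 and 8.83 in the Sox6 KO and 8.999, 9.39 and 9.03 in controls, lower by 0.36 ± 0.09 (adjusted p = 0.00619), and lost the call at -0.23 without control replicate 2. *Psmd6*, the 1 gene that was higher, differed by 0.26 ± 0.09 (adjusted p = 0.0395), lost without control replicate 1 (0.21) or 2 (0.27) or Sox6 KO replicate 1 (0.20) or 3 (0.26). The number of genes called at P1, 7, fell to 2 without control P1 replicate 2. The summed intensity of the 9 cardiomyocyte markers at P1 ranged from 146274 to 155700 in the Sox6 KO and from 151430 to 187432 in controls. That of the 2 atrial markers measured (*Nppa*, *Myl4*) ranged from 77718 to 82135 and from 30135 to 74990. Since the paper treats *Nppa* as a fetal type gene of the heart, this sum need not measure atrial tissue. The part of these markers in the differences was not tested.

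*Psmb10* was lower in the Sox6 KO at P30, at 10.18, 9.87 and 9.84 against 10.42, 10.13 and 10.47, by 0.38 ± 0.12 (adjusted p = 0.0449), with overlap. The call held under 7 of 16 alternatives and was lost without each of 4 single P30 arrays (control replicate 1 or 3, Sox6 KO replicate 2 or 3), at -0.34 to -0.31. In the mean of the 5 ages it was lower by 0.18 ± 0.05 (adjusted p = 0.0189), a call that no single array ended. This call was lost without replicate 1 (-0.13) or 3 (-0.17) of every group. Of the macrophage and leukocyte markers 3 of 5 were lower at P30 at an adjusted p under 0.05, where 5.49% of named probes were lower. Their summed intensities ranged from 8042 to 8486 in the Sox6 KO and from 11251 to 14479 in controls. At P60, where *Psmb10* differed by -0.05 ± 0.12, the sums were 8476 to 10778 and 7858 to 8011. At P14 the *Psmb10* means were 10.065 in the Sox6 KO and 10.36 in controls, and the sums were higher in the Sox6 KO, 5169 to 6288 against 4417 to 4681. At P7 the means were 10.38 and 10.52, with sums of 2384 to 2516 and 3400 to 4031. At P1 they were 10.04 and 10.06, with sums of 1996 to 3026 and 2088 to 2369. The part of these markers in the result was not tested.

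*Psmc3ip*, which encodes a partner of the meiotic recombinases and is in the set by its symbol alone, was lower in the Sox6 KO. *Psmc3ip* in control ventricles was at 10.04, 9.94 and 10.001 at P1, 9.59, 9.82 and 9.65 at P7, 9.74, 9.84 and 9.66 at P14, 10.08, 9.88 and 10.09 at P30 and 9.94, 10.17 and 10.06 at P60. *Psmc3ip* in the Sox6 KO was at 9.33, 9.32 and 9.36 at P1, 9.86, 9.33 and 9.93 at P7, 9.62, 9.08 and 9.74 at P14, 9.36, 9.35 and 9.22 at P30 and 10.03, 9.38 and 9.97 at P60. The genotypes did not overlap at P1 and P30 and did at the other ages. The difference was -0.66 ± 0.15 at P1 (adjusted p = 0.00315) and -0.71 ± 0.15 at P30 (adjusted p = 0.00286). In the mean of 5 ages it was -0.37 ± 0.07 (adjusted p = 0.000202). No single array ended these calls. The P1 call was lost at -0.66 without replicate 3 of every group. The P30 call was lost at -0.70 without replicate 1 and at -0.63 without replicate 3 of every group. *Psme3ip1* was not called between the genotypes.

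**Figure D5:**
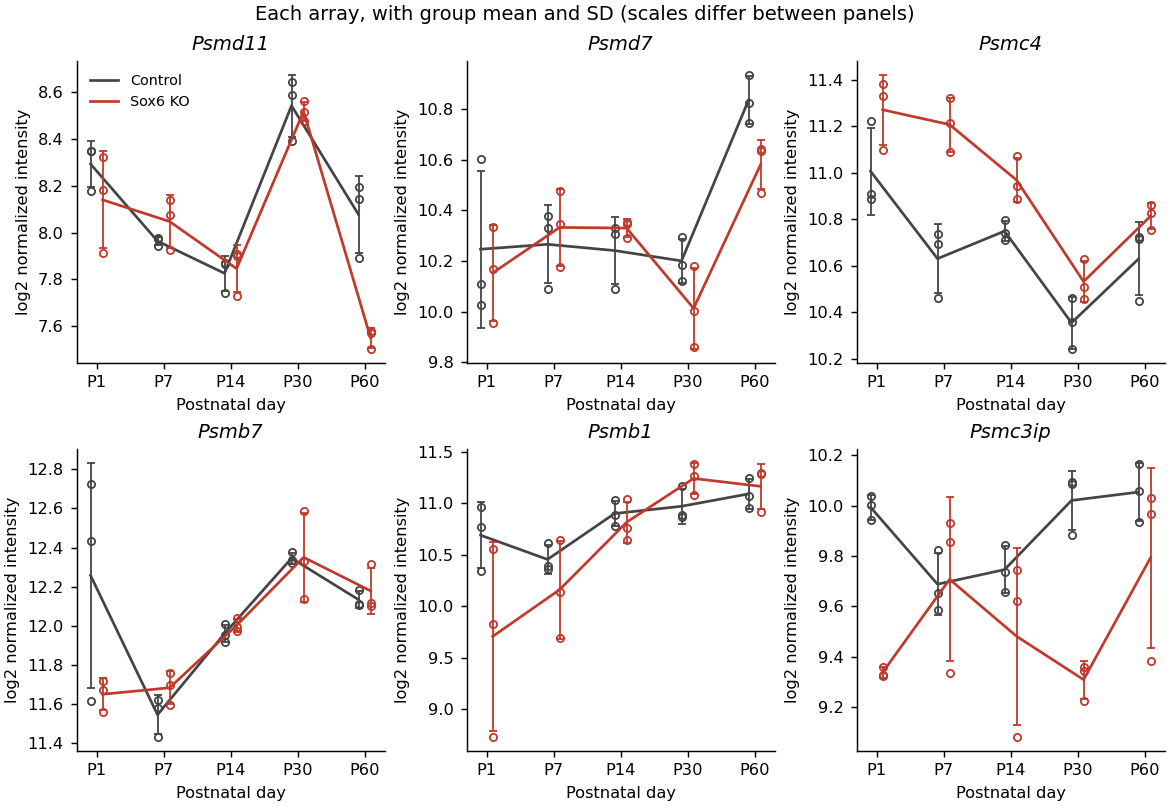
Log2 normalized intensity on each array (open circles) with group mean and SD (n = 3) for 6 genes against postnatal age, controls in grey and Sox6 KO in red. The vertical scales differ between panels. *Psmd11* in the Sox6 KO is lowest at P60 (7.50 to 7.58), *Psmc4* is higher in the Sox6 KO at P7, and *Psmb7* and *Psmb1* have wide spreads at P1.

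The genes that act around the particle were read from lists of cofactors, shuttles, regulators and ligases. From P1 to P60 in controls 34.3% of named probes were higher and 30.6% lower, and the counts of each list are read against these shares. Of 12 proteasome-bound cofactors 6 were measured, and over that span 3 rose and none fell, or 2 and 2 with median scaling. *Ecpas*, the scaffold that holds core and cap together, was at 9.65, 9.08 and 9.61 at P1 and 10.63, 10.14 and 10.64 at P60, higher by 1.02 ± 0.14 (2.03-fold, adjusted p = 3.48e-07). *Pomp*, the maturation factor of the core, was higher by 0.53 ± 0.09 and *Usp14*, a deubiquitinase on the cap, by 0.30 ± 0.09. Since only 2 cofactors rose with median scaling, at least 1 of these 3 calls was lost with it. Of 14 shuttle and p97 genes 9 were measured, and 5 rose and 2 fell, or 2 and 4 with median scaling. *Ubqln4*, a shuttle for ubiquitinated proteins, was at 8.19, 8.49 and 8.48 at P1 and 9.24, 9.31 and 9.30 at P60, higher by 0.90 ± 0.09 (1.86-fold, adjusted p = 4.32e-09). *Faf1*, a p97 adaptor, was higher by 0.88 ± 0.13 and *Nsfl1c*, another one, lower by 0.53 ± 0.12.

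Of 9 regulators of proteasome genes 5 were measured, of which 4 rose and 1 fell in controls from P1 to P60, or 1 and 1 with median scaling (34.3% of named probes were higher and 30.6% lower). *Nfe2l1* encodes the factor that raises proteasome subunit genes when the proteasome is inhibited. *Nfe2l1* in control ventricles was at 10.72, 10.79 and 10.90 at P1, 11.41, 11.50 and 11.59 at P7, 11.96, 11.89 and 11.91 at P14, 11.74, 11.87 and 11.73 at P30 and 12.09, 12.04 and 12.17 at P60. *Nfe2l1* in the Sox6 KO was at 10.56, 10.43 and 10.59 at P1, 11.25, 11.20 and 11.18 at P7, 12.07, 12.09 and 11.86 at P14, 11.90, 11.76 and 11.74 at P30 and 12.13, 12.17 and 12.16 at P60. Every P7 array lay above every P1 array and every P60 array above every P7 array, in both genotypes. From P1 to P60 it rose by 1.30 ± 0.07 in controls (2.46-fold, adjusted p = 5.49e-15) and 1.63 ± 0.07 in the Sox6 KO (3.09-fold, adjusted p = 3.90e-17). *Mafg*, a small Maf partner of that factor, was higher by 0.53 ± 0.11 and *Syvn1*, a ligase of the endoplasmic reticulum, by 0.46 ± 0.11 in controls. Since only 1 regulator rose in controls with median scaling, at most 1 of *Nfe2l1*, *Mafg* and *Syvn1* kept its control call with it. Of 12 muscle ubiquitin ligases 7 were measured, and 5 rose and 1 fell against the same shares, or 4 and 1 with median scaling. *Trim54*, a ligase of the sarcomere, was higher by 2.84 ± 0.08 (7.18-fold), *Fbxo32*, the atrophy ligase atrogin-1, by 1.74 ± 0.11 and *Huwe1* by 1.05 ± 0.10. The control P1 arrays of *Trim54* (7.18, 7.18 and 7.02) lay near the detection limit. On those arrays the limit was at unnormalized intensities of 139, 110 and 130. The *Trim54* fold is thus taken against a value near the floor. None of the 7 listed ubiquitin and E1 genes was measured. Between the genotypes, none of the 6 cofactors and of the 9 shuttle and p97 genes passed at any of the 5 ages. Of named probes 10.7% were higher and 12.3% lower at P1, and from 1.43% to 5.49% each way at the later ages. Shares that low leave few calls to find in lists this short.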

How the data were processed

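Total RNA of 30 ventricle samples was labelled as biotinylated cRNA and hybridised by the study to 1-colour Illumina mouse bead arrays. The authors deposited unnormalized probe intensity values with the detection p columns empty, and a table of 6784 probes with normalized intensity values, whose quantile-normalized log2 form was recovered from the unnormalized values to within 4.80e-10. Nothing read here states the export settings of the scanner software. The study's comparisons were made with limma per the labels.

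Here the 46255 rows were reduced by 7 repeated rows, 936 negative control rows and 38 other control rows, where control rows were told by their identifiers. Intensities were quantile normalized on the log2 scale without background correction in limma 3.58.1 (R 4.3.3). A probe was tested when, on each of the 3 arrays of some group, it was brighter than the negative controls' mean by 2 of their SDs, which left 17991 probes. All groups entered 1 fit with a mean per group (20 residual and 6.72 prior degrees of freedom), and p values were Benjamini-Hochberg adjusted over all probes tested. Gene names came from the platform annotation, which lists 6077 of the deposited processed probes, 6074 with 1 gene and 3 with several. The call used was an adjusted p under 0.05, and the study's thresholds (adjusted p under 0.01, at least 1.5-fold) are given where stated.

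All 3 values per group are printed for *Psme4*, for members past the study's thresholds in any of 15 comparisons, and for the 2 members of each role with the largest change each way from P1 to P60 in controls among those at adjusted p under 0.05. Of the pathway lists, up to 3 genes with the largest such change are named. The members and lists were chosen with earlier results of these data known. Alternatives were median scaling, background correction with negative controls, no filter, probes detected on all 30 arrays, the authors' processed table, only the groups compared, the replicate number as a block, and leaving out arrays. Exact permutation of 3 against 3 arrays cannot go below p = 0.10, so no such test was run. The study calls the replicates biological, but the labels only number them, so p values measure the spread between these samples, which may be technical in part. Nothing read here states whether ventricles were pooled. Promoters are from RefSeq (GRCm38.p6), and 6 members have no window in the search. Entries of members on a single chromosome were left out before it, whereas the share over all genes kept that chromosome. A member without a window may therefore still have an entry.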

Additional observations from a re-analysis of the deposited data

Results flagged for a closer look

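The difference between Sox6 KO and control changed with age for 4 of the 34 genes, by the F test on the 5 differences. *Psmb3*, a beta subunit, had an adjusted p of 0.00777, with differences, in order of age from P1 to P60, of -0.35, 0.08, 0.08, -0.02 and 0.15. *Psmd11*, a lid subunit, had an adjusted p of 0.00813, with -0.15, 0.08, 0.02, -0.02 and -0.53 in the same order. *Psme4*, the activator PA200, had an adjusted p of 0.0305, with -0.18, -0.35, 0.27, 0.03 and -0.08. *Psmc5*, a 19S ATPase, had an adjusted p of 0.0463, with -0.26, 0.25, 0.04, 0.19 and 0.01. Of all named probes 19.1% passed the same test.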

How the results depend on the processing

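The 5 changes of *Psme4* against the core kept their direction under every alternative. Median scaling moved the small changes most: it reversed the rise from P1 to P60 in the Sox6 KO of *Psma2* (-0.16), *Psmb10* (-0.10), *Psmd12* (-0.17), *Psme2* (-0.13) and *Psmg1* (-0.031), and that of *Psma4* from P7 to P14 (-0.086). The cause was not tested.

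Counts of genes called, against those in the report, were as follows. Median scaling called 14 genes at the study's thresholds in place of 6. It gave 1 in place of 2 between genotypes at P7 and at P60, 10 in place of 5 in the mean of 5 ages, 21 in place of 7 for P14 against P7 and 5 in place of 10 for P60 against P30 in the Sox6 KO, and 2 in place of 4 for an effect that differs between ages. Background correction gave 1 in place of 3 for P14 against P7 in controls, 1 in place of 2 between genotypes at P7, P30 and P60, 4 in place of 7 for P14 against P7 and 1 in place of 5 for P7 against P1 in the Sox6 KO, and 1 in place of 4 for the differing effect. Without a filter there was 1 in place of 2 between genotypes at P7 and P30, 4 in place of 7 and 1 in place of 5 for the same steps of the Sox6 KO, and 2 in place of 4. Probes detected on all arrays gave 5 in place of 3 (P14 against P7, controls) and 3 in place of 5 (P7 against P1, Sox6 KO). The authors' table gave 3 in place of 5 for that step and for the mean of 5 ages. Only the groups compared gave 7 in place of 3 for P14 against P7 in controls, 1 in place of 7 between genotypes at P1, 1 in place of 0 at P14, 1 in place of 2 at P30 and P60, 6 in place of 10 for P60 against P30 and 2 in place of 5 for P7 against P1 in the Sox6 KO.

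Leaving out arrays gave 3 to 11 genes at the study's thresholds. In controls it gave 5 to 12 for P7 against P1, 0 to 3 for P14 against P7, 4 to 8 for P30 against P14, 3 to 7 for P60 against P30 and 11 to 16 for P60 against P1. In the Sox6 KO these were 0 to 4, 3 to 6, 7 to 13, 4 to 8 and 10 to 15. Between genotypes it gave 0 to 9 at P1, none at P14, 0 to 2 at P30, 1 to 2 at both P7 and P60, and 3 to 7 in the mean. The F tests gave 17 to 27 for control ages, 14 to 26 for Sox6 KO ages and 0 to 6 for the differing effect. Without Sox6 KO P1 replicate 3, none of the 5 calls of P7 against P1 remained. *Psme4* against the core changed by 1.51 to 1.70 (P1 to P60) and 1.11 to 1.23 (P14 to P30) in controls, by 1.23 to 1.67 (P1 to P60) and 0.75 to 0.96 (P7 to P14) in the Sox6 KO and by -0.41 to -0.31 between genotypes at P7.

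Same-numbered replicates did not deviate together, with correlations from -0.231 to 0.125, so the numbers were not used as pairs. In this balanced design the replicate block cannot move a difference, only its error. It ended 6 calls of single genes: *Psma7* (-0.25) and *Psmc4* (0.28) from P30 to P60, *Psmd14* from P1 to P60 (-0.30) and *Psme1* from P7 to P14 (-0.24) in the Sox6 KO, and *Psmc4* from P30 to P60 (0.27) and *Psmd14* from P7 to P14 (-0.36) in controls. No count of genes called moved by over 1.5 times with it. A block by chip was not run because the headers name no chip, and a probe chosen on P1 alone was the same for every gene. With 3 arrays a group the number of arrays limits the precision.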

Other observations

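*Psmb5* encodes the beta subunit with the chymotrypsin-like site. No probe carries its name in the platform annotation, and the name was taken from a list that the study chose on these same arrays, so its values are a description without a test. *Psmb5* in control ventricles was at 8.62, 9.11 and 8.86 at P1, 8.86, 8.67 and 8.70 at P7, 8.53, 7.82 and 8.39 at P14, 9.02, 8.79 and 8.98 at P30 and 8.70, 8.21 and 8.48 at P60. *Psmb5* in the Sox6 KO was at 9.71, 9.72 and 9.15 at P1, 9.58, 9.91 and 9.57 at P7, 9.59, 9.41 and 9.65 at P14, 9.96, 10.22 and 9.55 at P30 and 9.59, 9.83 and 9.69 at P60. Every Sox6 KO array lay above every control array of its age. The Sox6 KO minus control log2 difference, in order of age from P1 to P60, was 0.67, 0.95, 1.30, 0.98 and 1.24. It was in none of the counts and means of core subunits above.

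Of the muscle ubiquitin ligases, *Fbxo32* (atrogin-1) was higher in the Sox6 KO at P30, at 9.40, 9.68 and 9.79 against 8.91, 8.64 and 8.92, by 0.80 ± 0.11 (limma, adjusted p = 2.18e-05), and lower at P7 by 0.41 ± 0.11 (adjusted p = 0.0243). *Trim54* was lower in the Sox6 KO at P7 by 0.34 ± 0.08 and at P60 by 0.39 ± 0.08 (adjusted p = 0.0133 and 0.00495). Other ligases differed too: Sox6 KO and control means were 7.46 and 7.79 for *Cblb* at P7. For *Huwe1* they were 8.37 and 8.05 at P1 and 9.13 and 8.81 at P14. Of named probes 12.3% were lower at P1, 3.39% at P7 and 2.36% at P60, and 4.05% were higher at P30. The genes of this paragraph are picked from their lists, and counts over the lists and results under the alternatives are not given. *Nfe2l1* was lower in the Sox6 KO at P1, at 10.56, 10.43 and 10.59 against 10.72, 10.79 and 10.90, by 0.28 ± 0.07 (adjusted p = 0.00654), and at P7, at 11.25, 11.20 and 11.18 against 11.41, 11.50 and 11.59, by 0.29 ± 0.07 (adjusted p = 0.00968), with no overlap of arrays at either age.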
